A study of Mus musculus with 6 samples.

Results

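The insulin-like growth factor (IGF) system was followed through 10 genes on 6 Agilent mouse arrays: the ligands Igf1 and Igf2, the receptors Igf1r and Igf2r, and the binding proteins Igfbp2 to Igfbp7. The genes were chosen by name, with earlier results of these data known. Every probe that the files name for one of them was kept, which gave 21 of the 41174 probes and 10 of the 27376 gene names on the array. The RNA came from mouse embryonic fibroblasts (MEFs) at day 8 of reprogramming, all infected with the factors abbreviated SKO and cultured with LIF for 6 days per the labels. They fall into 3 groups of 2 arrays: SKO with Gadd45a (written Ga in the sample titles), SKO with G39A, described as a negative mutant of Gadd45a, and SKO with the control Flag. Each group has 1 array of replicate 1 and 1 of replicate 2. The labels name no strain and no vector, and do not say that replicates are separate cultures. The p-values therefore rest on array-to-array spread alone, which may be technical.

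IGFs are small secreted hormones related to insulin that drive growth and survival of mesenchymal cells. Igf1r is the tyrosine kinase that passes their signal on, whereas Igf2r, the cation-independent mannose 6-phosphate receptor, takes Igf2 up for degradation. Secreted binding proteins hold IGFs in the medium or at the matrix, and can block or prolong their access to the receptor. Fibroblasts are a main source of several of them in culture.

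The probes are 60-base oligonucleotides, each reading one stretch of a transcript. Those below belong to 4 genes on which the results turn and for which the array reads a coding stretch. The coding position is from general knowledge of these proteins, and no capitals are used because the whole stretch is the target. They are given 5′ to 3′ in the sense of the transcript, with mm9 positions from the files.
Igf1, base 486, chr10:87376418-87376477, plus strand: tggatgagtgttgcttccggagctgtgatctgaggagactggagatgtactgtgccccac
Igfbp2, base 958, chr1:72898677-72898736, plus strand: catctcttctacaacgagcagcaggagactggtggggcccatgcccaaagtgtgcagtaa
Igfbp3, base 817, chr11:7108469-7109478, minus strand, across a splice junction: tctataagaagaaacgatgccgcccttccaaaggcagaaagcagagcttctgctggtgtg
Igfbp4, base 637, chr11:98909591-98909650, plus strand: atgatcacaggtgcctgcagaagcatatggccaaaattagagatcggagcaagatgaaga
The bases named are the first transcript base of the probe. Among the 192 pairs of member probes from different genes, the longest identical run was 10 bases, so the binding proteins are read by distinct sequences. The probes hold 35% to 55% G and C.

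Signals below are processed intensities scaled to one 75th percentile over the arrays, in arbitrary units, so that their ratios are the fold changes. They compare arrays for one probe and not one probe with another. Between 56.97% and 62.9% of spots were well above background on an array, and none was saturated. The replicate numbers stood far apart. Correlations of log2 signal were 0.989 to 0.993 between arrays of one replicate number and 0.922 to 0.924 between the 2 arrays of one group. All replicate 2 arrays lay on 1 slide and the replicate 1 arrays on 2 others, so slide and replicate number cannot be told apart. In replicate 1 the Flag and Gadd45a arrays shared a slide and the G39A array lay on the other. Differences of G39A from the other groups in replicate 1 therefore cannot be told apart from slide. Pou5f1, the gene of the pluripotency factor Oct4, was not well above background on any replicate 2 array (3.68 to 4.65), against 3835 to 5522 on the replicate 1 arrays, at least 228-fold higher in replicate 1. If SKO includes a mouse Pou5f1 read by this probe, the replicate 2 signals go against the label. The Sox2 probe was not well above background on any replicate 1 array (8.27 to 10.9). On the replicate 2 arrays (15.6 to 22.5) it was so on 1. If SKO includes a mouse Sox2 read by that probe, the replicate 1 signals go against the label too. The Klf4 probe was well above background on every array, at 19148.5 to 20813.5 in replicate 2 and 13927 to 16218 in replicate 1. These signals do not settle which factors the cells received, and each group is named as labelled. The Gadd45a probe gave 2061 and 540 on the arrays labelled Gadd45a, 2269 and 1210 on those labelled G39A, and 2378 and 1013 on those labelled Flag, for replicates 2 and 1. It was not brighter in the Gadd45a group, and whether it reads the introduced copy is not given in the sources used here.

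The replicate numbers were compared first because every member can be read against that difference. The ligands Igf1 and Igf2, the receptor Igf2r and the binding proteins Igfbp2, Igfbp4, Igfbp5 and Igfbp7 rose in the replicate 2 arrays. Igf1r and Igfbp3 fell, and Igfbp6 did not pass the test. Of the 21 probes, 20 passed limma's test with Benjamini-Hochberg adjustment at 0.05, against 57.3% of the 24691 probes tested. Higher calls numbered 13, where 32.6% of all probes were called higher, and lower calls numbered 7, where 24.7% were called lower. Over all probes the calls were 8047 higher and 6098 lower, or 10287 and 5007 when arrays were scaled to their median, which moved the median of all probes to 0.24 on the log2 scale, against 0.10 here. At least 2-fold higher calls numbered 13 (11.1% of all probes) and at least 2-fold lower calls 3 (12.3%). Of the 21 member probes, 5 were called at least 10-fold higher, where 1.18% of all probes were, and they belong to Igf2, Igfbp2 and Igfbp5. The Igfbp5 probe at base 3067, one of them, was well above background on 1 replicate 1 array, and the Igf1 clone probe on none. Both entered the test only through the replicate 2 arrays, where they are brighter, so their calls in these counts are no support for a difference. With another background correction the rise of this Igfbp5 probe was 2.06 on the log2 scale. The replicate 2 and replicate 1 arrays did not overlap for 20 member probes, against 68.2% of all probes. The median absolute log2 difference was 1.82 over the member probes and 0.43 over all probes. The members were chosen with earlier results of these data known, so these shares describe the set and are no independent test of it.

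**Figure D1:**
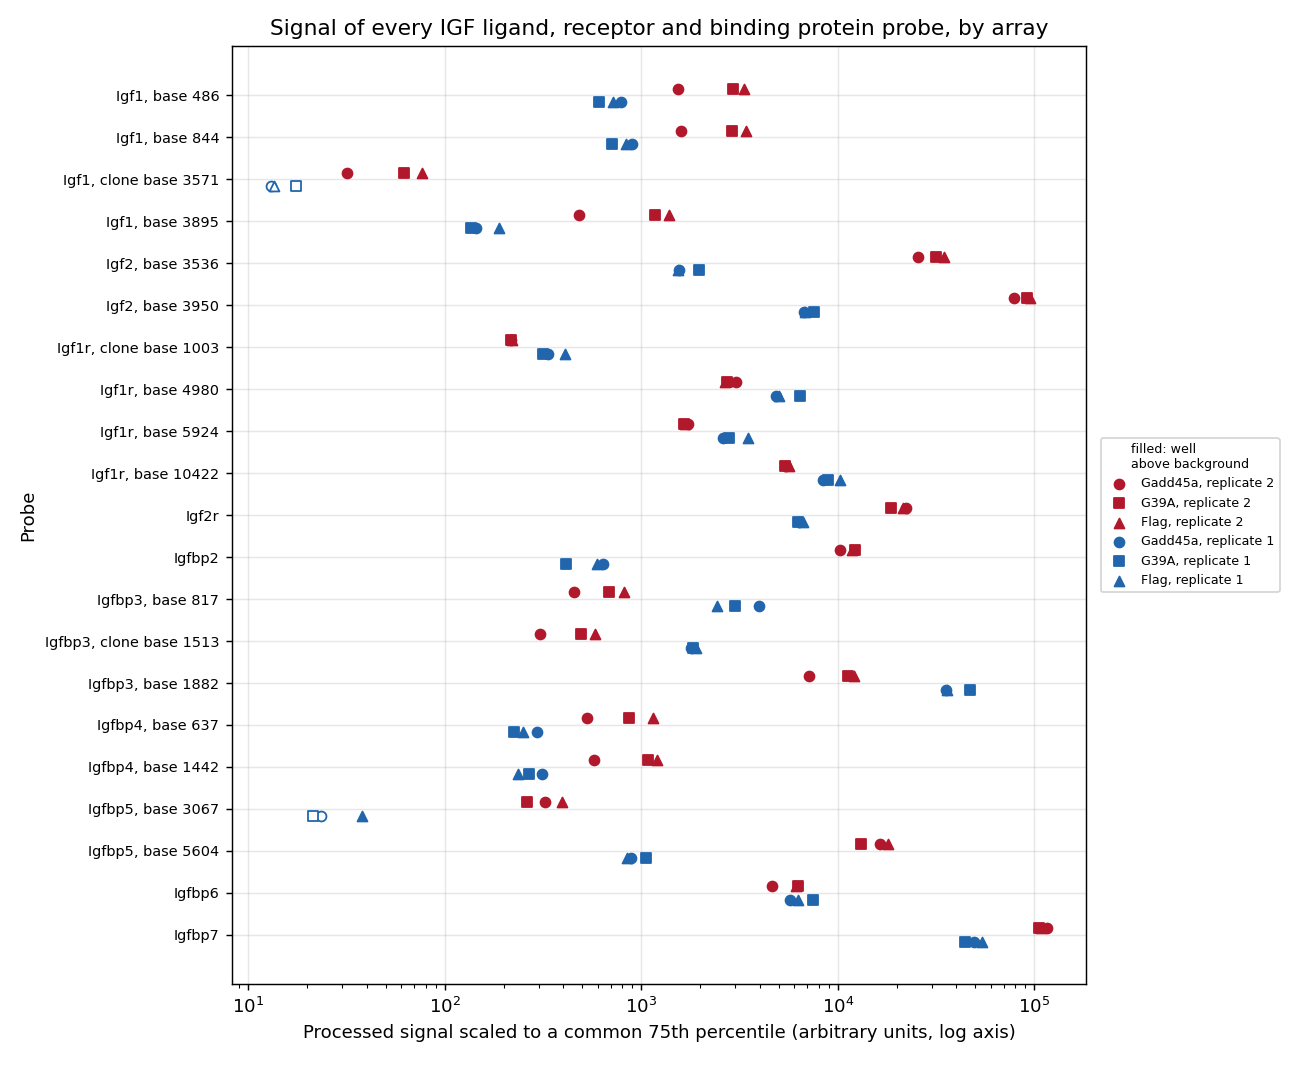
Scaled processed signal (arbitrary units, log axis) of the 21 member probes on each of the 6 arrays, replicate 2 in red above replicate 1 in blue, with filled marks where the probe was well above background. For Igf2, Igfbp2 and Igfbp5 the replicate 2 marks lie far to the right of the replicate 1 marks, for Igfbp3 they lie to the left, and for Igfbp6 they overlap.

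Igf2, the fetal growth factor expressed from the paternal allele, was among the largest risers on the array. Its probe at base 3536 (chr7:149837115-149837174) gave 25632 in Gadd45a, 31721 in G39A and 34668 in Flag on the replicate 2 arrays, against 1558, 1978 and 1534 on the replicate 1 arrays in the same group order. All replicate 2 arrays were far above all replicate 1 arrays, and the groups lay close together within a number. The log2 difference was 4.18 ± 0.13 (SE, n = 3 arrays per number, adjusted p = 7.99e-05 by limma), an 18.1-fold rise. The second Igf2 probe, at base 3950, was printed as 10 spots and averaged 88333 ± 8659 in replicate 2 and 7027 ± 487 in replicate 1 (SD, n = 3 each), a 12.5-fold rise. Only 103 and 201 of the tested probes rose by more than these 2 probes.

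H19, the non-coding RNA expressed from the maternal allele next to Igf2, moved with it. Its nearer probe lies 74508 bases from the nearest Igf2 probe on chromosome 7. The brighter H19 probe, slightly farther away, read 58607 in Gadd45a, 81474 in G39A and 90604 in Flag on the replicate 2 arrays. On the replicate 1 arrays it read 2065, 2858 and 2800. The log2 difference was 4.89 ± 0.09, and the nearer H19 probe gave 4.94. Both neighbours were thus high on the same 3 arrays.

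Igf1, the growth factor that fibroblasts secrete for themselves and their neighbours, also rose, and here the groups parted within replicate 2. At base 486 the signals were 1534 in Gadd45a, 2938 in G39A and 3336 in Flag on the replicate 2 arrays, against 787, 608 and 717 on the replicate 1 arrays. Every replicate 2 array was above every replicate 1 array, with the Gadd45a array nearest to them. The log2 difference was 1.82 ± 0.29 (adjusted p = 0.00688), a 3.52-fold rise. The probe at base 844, printed as 10 spots whose signals varied by 2.25% to 4.73% (coefficient of variation within an array), gave 1.63 ± 0.28. The probe at base 3895 read 481, 1169 and 1381 in replicate 2, against 144, 136 and 189 in replicate 1, for Gadd45a, G39A and Flag. Its log2 difference, 2.57 ± 0.29, was the largest of the 4 Igf1 probes.

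The remaining Igf1 probe, at base 3571 of a clone, lies 50977 bases from the next one and was dim. It read 31.6 in Gadd45a, 62.0 in G39A and 76.6 in Flag on the replicate 2 arrays, and was not well above background on any replicate 1 array (13.0, 17.6 and 13.5). On these scaled signals it was at least 2.31-fold higher in replicate 2. Under another background correction its log2 difference was 0.67, against 1.87 here. It entered the test only through the replicate 2 arrays. An "at least" ratio sets the mean of the bright arrays against the higher of the dim signal and the lowest signal called well above background.

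Igf1r, the signalling receptor, fell modestly and with the same sign on all 4 of its probes. The probe at base 10422 (chr7:75376998-75377057) read 5441 in Gadd45a, 5361 in G39A and 5620 in Flag on the replicate 2 arrays, against 8395, 8914 and 10204 on the replicate 1 arrays. The replicate 2 arrays were nearly alike and all below replicate 1. The log2 differences of the 4 probes lay between -0.93 ± 0.13 and -0.69 ± 0.10, so the signal was 1.62-fold to 1.91-fold lower in replicate 2. None of them reached a 2-fold change.

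Igf2r, the receptor that clears Igf2, went the other way. It read 22177 in Gadd45a, 18581 in G39A and 21537 in Flag on the replicate 2 arrays, against 6360, 6285 and 6681 on the replicate 1 arrays. The numbers did not overlap and the groups differed little. The log2 difference was 1.68 ± 0.09 (adjusted p = 0.000257), a 3.22-fold rise.

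Igfbp2, a binding protein abundant in fetal tissues, rose more than any other member. Its signal was 10312 in Gadd45a, 12168 in G39A and 11748 in Flag on the replicate 2 arrays, against 637, 412 and 596 on the replicate 1 arrays. The log2 difference was 4.40 ± 0.19 (adjusted p = 0.000143), a 21.1-fold rise, and 77 tested probes rose by more. The groups kept no common order, since G39A was highest in replicate 2 and lowest in replicate 1.

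Igfbp5, a binding protein that attaches to extracellular matrix, rose almost as far. The probe at base 5604 (chr1:72904829-72904888) read 16396 in Gadd45a, 13130 in G39A and 18000 in Flag on the replicate 2 arrays, against 886, 1054 and 846 on the replicate 1 arrays. This was a log2 difference of 4.09 ± 0.17, or 17.0-fold. The dimmer probe at base 3067 read 325, 261 and 396 in replicate 2, against 23.5, 21.2 and 38.0 in replicate 1, where it was well above background on the Flag array only. Its log2 difference of 3.60 ± 0.11 rests partly on dim signals and was 2.06 under another background correction.

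Igfbp2 and Igfbp5 are neighbours: their nearest probes lie 6093 bases apart on mouse chromosome 1, on opposite strands. Because these 2 genes rose together, the 250 bases upstream of their starts are shown from RefSeq (build GRCm38.p6), with GC boxes in capitals. By their positions these upstream stretches lie farther apart than the probes and do not overlap. A GC box is GGGCGG on either strand (CCGCCC on the other), and 32.7% of the 32851 promoters of the same length in the table hold one.
Igfbp2, chr1:72824230-72824479, plus strand: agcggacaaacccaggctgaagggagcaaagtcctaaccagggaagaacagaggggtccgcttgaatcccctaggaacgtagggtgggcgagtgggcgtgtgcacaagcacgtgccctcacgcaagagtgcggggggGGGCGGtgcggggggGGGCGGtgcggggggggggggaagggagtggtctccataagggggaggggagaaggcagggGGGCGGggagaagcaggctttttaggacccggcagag
Igfbp5, chr1:72874866-72875115, minus strand: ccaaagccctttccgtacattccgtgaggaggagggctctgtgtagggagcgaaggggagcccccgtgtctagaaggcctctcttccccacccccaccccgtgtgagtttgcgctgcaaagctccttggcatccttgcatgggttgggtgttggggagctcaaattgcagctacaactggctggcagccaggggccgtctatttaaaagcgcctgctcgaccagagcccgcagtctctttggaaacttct
The Igfbp2 stretch holds 3 GC boxes and 14 CpG pairs, and the Igfbp5 stretch holds 0 and 10, against a median of 6 CpG pairs over all promoters in the table. The letters TATAAA or TTTATA, found in 12.4% of promoters, are in neither. RefSeq lists 14 starts for the 10 genes, among them 2 for Igfbp2 and 4 for Igf2. The stretch before the second Igfbp2 start (chr1:72825137-72825386) holds 0 GC boxes and 11 CpG pairs. These matches describe letters in a window.

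Igfbp4, an inhibitory binding protein cleaved by the protease Pappa, followed Igf1 in its pattern over the arrays. At base 637 it read 529 in Gadd45a, 864 in G39A and 1150 in Flag on the replicate 2 arrays, against 294, 224 and 251 on the replicate 1 arrays. As for Igf1, the Gadd45a array was the lowest of replicate 2 and still above all of replicate 1. The log2 differences were 1.66 ± 0.29 (adjusted p = 0.00827) and 1.75 ± 0.31 at base 1442. The second of these missed the threshold, at adjusted p = 0.0522, without either G39A array.

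Igfbp3, the main IGF carrier of serum, was the member that fell most. At base 1882 (chr11:7106594-7106653) it read 7104 in Gadd45a, 11223 in G39A and 12137 in Flag on the replicate 2 arrays, against 35641, 47235 and 35949 on the replicate 1 arrays. All 3 replicate 2 arrays were below all replicate 1 arrays, and Gadd45a was again the lowest of its number. The log2 difference was -1.99 ± 0.17 (adjusted p = 0.000931), so the signal was 3.97-fold lower in replicate 2. The probes at base 817 and at base 1513 of a clone gave -2.27 ± 0.31 and -2.05 ± 0.19. Between 1370 and 1594 tested probes fell by more than these 3.

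Igfbp7, a binding protein of low affinity for IGFs found in matrix, rose 2.23-fold. It averaged 110126 ± 5528 in replicate 2 and 49493 ± 4921 in replicate 1 (SD, n = 3 each), a log2 difference of 1.16 ± 0.10. Igfbp6, which prefers Igf2 to Igf1, read 4610.5 in Gadd45a, 6310 in G39A and 6130 in Flag in replicate 2, against 5717, 7486 and 6254 in replicate 1. These ranges overlapped, and the log2 difference of -0.20 ± 0.10 did not pass the test (adjusted p = 0.149).

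**Figure D2:**
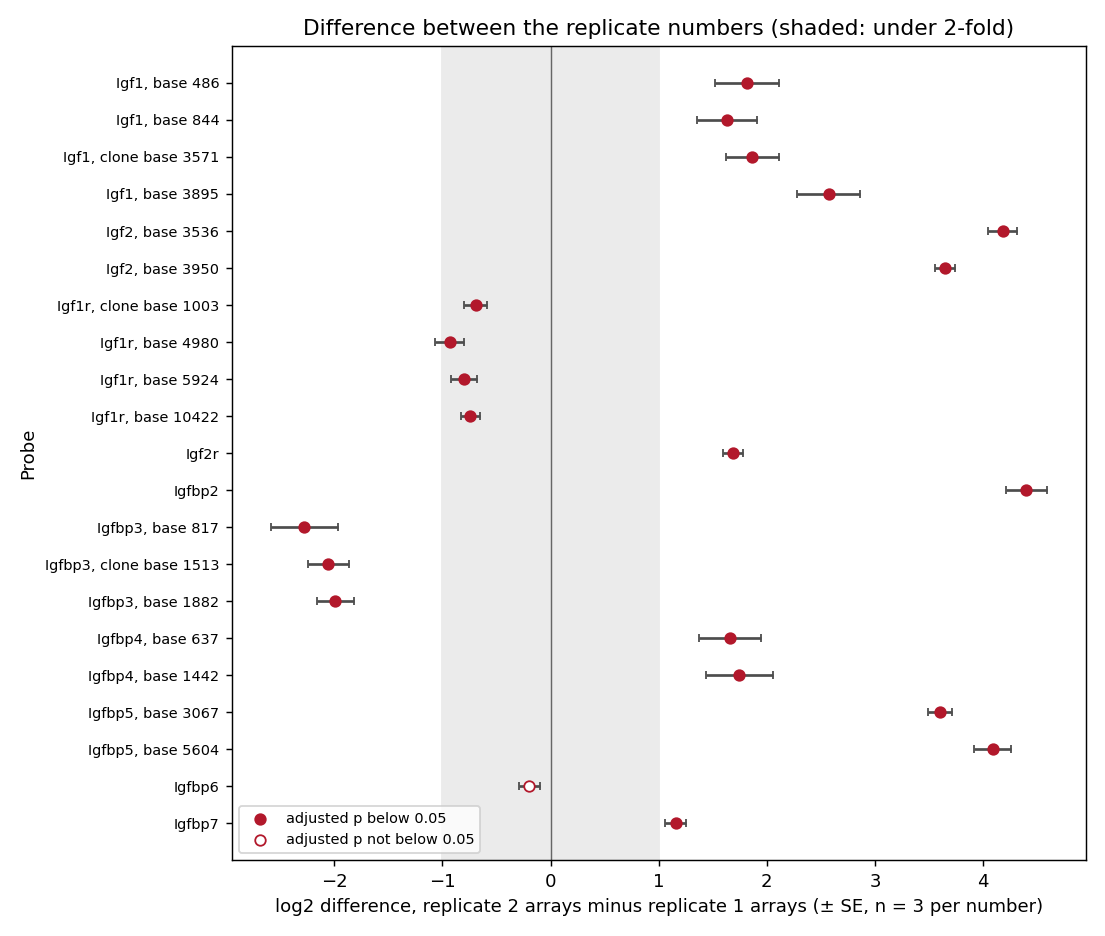
Log2 difference, replicate 2 arrays minus replicate 1 arrays (± SE, n = 3 per number), for the 21 member probes, with filled marks where limma's adjusted p was below 0.05 and shading below 2-fold. Igfbp2 lies at 4.40, the 3 Igfbp3 probes lie between -2.27 and -1.99, and Igfbp6, the open mark, lies at -0.20.

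Marker genes of other cell types also differed between the numbers, and their part in the IGF results was not tested. In RNA from whole cultures, fewer cells of a type and less RNA per cell cannot be told apart. Fibroblast markers were well above background on all replicate 2 arrays for 16 of 16 genes, and for 15 on all replicate 1 arrays, with summed signals of 1183290 to 1220390 and 663173 to 772455. Pluripotent markers (14 on the array, 3 bright on all replicate 2 arrays and 5 on all replicate 1 arrays) summed to 519 to 554, against 4526 to 6193, with Nanog not well above background on any replicate 2 array. Pou5f1 alone read 3835 to 5522 in the replicate 1 sums, so the gap in this list is mostly that gene. Epithelial markers (14 on the array, 5 and 10 bright) summed to 1911 to 3229, against 6311 to 6742, and Cdh1 and Epcam were dim on every replicate 2 array. Adipocyte markers (9 on the array, 4 and 4 bright) summed to 19417 to 26124, against 9071 to 9620, with Plin1 dim on all 6 arrays. Skeletal muscle markers (9 on the array, 4 and 2 bright), a lineage in which Igf2 and Igfbp5 are active, summed to 4038 to 5076, against 681.6 to 832, with Myod1 and Myog dim on all 6. Cartilage and bone markers (10 on the array, 7 and 6 bright) summed to 3688 to 4257, against 8014 to 8594. Neural markers (8 on the array, 7 and 7 bright) summed to 6608 to 7493, against 8947 to 12684, with Gfap dim on all 6. Endothelial markers (8 on the array, 3 and 5 bright) summed to 1538 to 2611, against 1126 to 1141, with Pecam1 and Cdh5 dim on all 6.

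The study's own question was which genes Gadd45a regulates in these cells. No IGF probe passed the test in Gadd45a against Flag, G39A against Flag or Gadd45a against G39A, nor did any of the 24148 probes tested (0% in each comparison). The test, limma without a block, covered 20 of the 21 member probes, because the clone probe of Igf1 failed the background mark on at least 1 array of every group. The Igfbp5 probe at base 3067 entered only through the Flag arrays. No member had an unadjusted p under 0.05. Over all probes 148, 126 and 165 did in the 3 comparisons. Without a block the difference between the numbers stays in the error, with an SE of 2.545 for Igfbp2 in Gadd45a against Flag (0.230 with the replicate block). For members that differ widely between the numbers, this test could therefore hardly give a small p. With the replicate block, which removes the difference between the numbers, 2, 1 and 1 members had an unadjusted p under 0.05 and again none passed. The 1 in G39A against Flag, and 1 of the 2 in Gadd45a against Flag, were this Igfbp5 probe, which passed the filter through the group where it is brightest, so these counts are no support for a difference. The lowest adjusted p among members was then 0.590 in Gadd45a against Flag (on that Igfbp5 probe, with 0.640 the value of the Igf1 probe at base 3895), 0.991 in G39A against Flag and 0.573 in Gadd45a against G39A (Igfbp6). Over all probes the block gave 1879, 721 and 2049 unadjusted p-values under 0.05.

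Within replicate 2, where each group is 1 array and no test is possible, the Gadd45a array read lower than the Flag array on 16 of 20 member probes, as it did on 12535 of all 24148 probes. Of these, 5 were at least 2-fold lower, where 1.81% of all probes were, and none was 2-fold higher (1.59%). All 5 belong to Igf1 and Igfbp4. The median log2 difference was -0.35 over the members and -0.01 over all probes. Within replicate 1 the Gadd45a array was lower on 12 of 20, near the background of 13061 of 24148, with no 2-fold difference downwards (1.24% of all probes) or upwards (0.588%), and the medians were -0.04 over the members and -0.02 over all probes.

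Igf1 was the clearest case. The log2 differences of Gadd45a from Flag in replicate 2 were -1.12, -1.10 and -1.52 at bases 486, 844 and 3895, and -1.28 on the dim clone probe (-0.43 there with normexp background correction). In replicate 1 they were 0.13, 0.12 and -0.39, and the clone probe was dim on both arrays. The Gadd45a array was thus below the Flag array on all 4 probes in replicate 2 and on 1 of the 3 measured ones in replicate 1. The G39A array differed from Flag by -0.18 to -0.31 on the 4 probes in replicate 2, and stood nearer to Flag than to Gadd45a there. Over both replicates, the probe at base 3895 gave -0.96 ± 1.53 for Gadd45a against Flag (SE, n = 2 per group), or -0.96 ± 0.36 with the replicate block (adjusted p = 0.640).

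Igfbp4 showed the same split. Its 2 probes were -1.12 and -1.07 in Gadd45a against Flag in replicate 2, and 0.23 and 0.40 in replicate 1. The sign was opposite in the numbers, and over both replicates the probe at base 637 gave -0.45 ± 0.35 with the replicate block (adjusted p = 0.788). Igfbp3 differed by -0.84, -0.93 and -0.77 in Gadd45a against Flag in replicate 2 at bases 817, 1513 and 1882, against 0.71, -0.08 and -0.01 in replicate 1. Its probes disagree in replicate 1, where only the one at base 817 was clearly brighter in Gadd45a. These differences within a number were not tested against each other.

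Marker lists also differed between the groups in replicate 2, in both directions. Macrophage markers, a list of which 12 are on the array, were lowest in Gadd45a there. They summed to 6144 in Gadd45a, 7011 in G39A and 9760 in Flag in replicate 2, and to 2235, 2364 and 2238 in replicate 1, with the leukocyte marker Ptprc dim on all 6 arrays and 9 and 8 genes bright on all arrays of a number. Adipocyte markers summed to 19417, 25174 and 26124 in replicate 2, the same order as Igf1, and to 9071, 9435 and 9620 in replicate 1, where Igf1 at base 486 had another order. Epithelial markers were highest in Gadd45a in replicate 2, at 3229, 2431 and 1911, and summed to 6742, 6369 and 6311 in replicate 1. Endothelial markers summed to 2611, 1538 and 1570 in replicate 2, again highest in Gadd45a, and to 1141, 1135 and 1126 in replicate 1. Macrophages and fat cells are known sources of Igf1, and the part of any of these cell types in the differences was not tested.

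Igfbp6 kept its sign in both numbers. So did other members in Gadd45a against G39A, among them Igf2 and the Igfbp3 probes at bases 1513 and 1882. Igfbp6 had the smallest error of the members in the model without a block, where the difference between the numbers stays in the error. With the block its SE was 0.117, against 0.109 for Igf1r at base 10422. For Igfbp6, Gadd45a minus G39A was -0.45 in replicate 2 and -0.39 in replicate 1, and Gadd45a minus Flag was -0.41 and -0.13. Over both replicates the difference of Gadd45a from G39A was -0.42 ± 0.21, or -0.42 ± 0.12 with the replicate block, and did not pass (adjusted p = 0.573 with the block). For Igf2, Gadd45a minus G39A was -0.31 and -0.22 on its 2 probes in replicate 2 and -0.34 and -0.18 in replicate 1. These kept their sign too and did not pass (limma with the replicate block, adjusted p = 0.605 and 0.631). Its Gadd45a minus Flag was -0.44 and -0.28 in replicate 2 and 0.02 and -0.02 in replicate 1. Igfbp5 at base 5604 gave -0.13 and 0.07. Its dimmer probe at base 3067 gave -0.29 and -0.70, lower in both numbers, but was not well above background on the Gadd45a replicate 1 array (-0.49 ± 0.14 with the replicate block, adjusted p = 0.590). Igf1r, Igf2r, Igfbp2 and Igfbp7 stayed within -0.42 and 0.18 in this comparison in both numbers.

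G39A against Flag showed no 2-fold difference on any of the 20 members in replicate 2 (0.886% of all probes lower and 0.923% higher) or in replicate 1 (1.44% and 1.16%). G39A was lower on 17 of 20 in replicate 2 and on 12 of 20 in replicate 1, with medians of -0.14 and -0.12. Of all 24148 probes, 12891 and 13139 were lower, with medians of -0.01 and -0.03, so the replicate 1 count lies near the background. Its lowest values, -0.60 and -0.84, were those of the Igfbp5 probe at base 3067, which was not well above background on the G39A replicate 1 array. With normexp they were -0.49 and -0.32. Gadd45a against G39A had 1 member at least 2-fold lower in replicate 2, Igf1 at base 3895 with -1.28, where 1.18% of all probes were, and none 2-fold higher (1.2%). In replicate 1 none of the 20 was 2-fold lower (1.71%) or higher (1.17%). The 3 comparisons share arrays and are not independent of each other, and in replicate 1 the G39A array lay on a slide of its own.

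**Figure D3:**
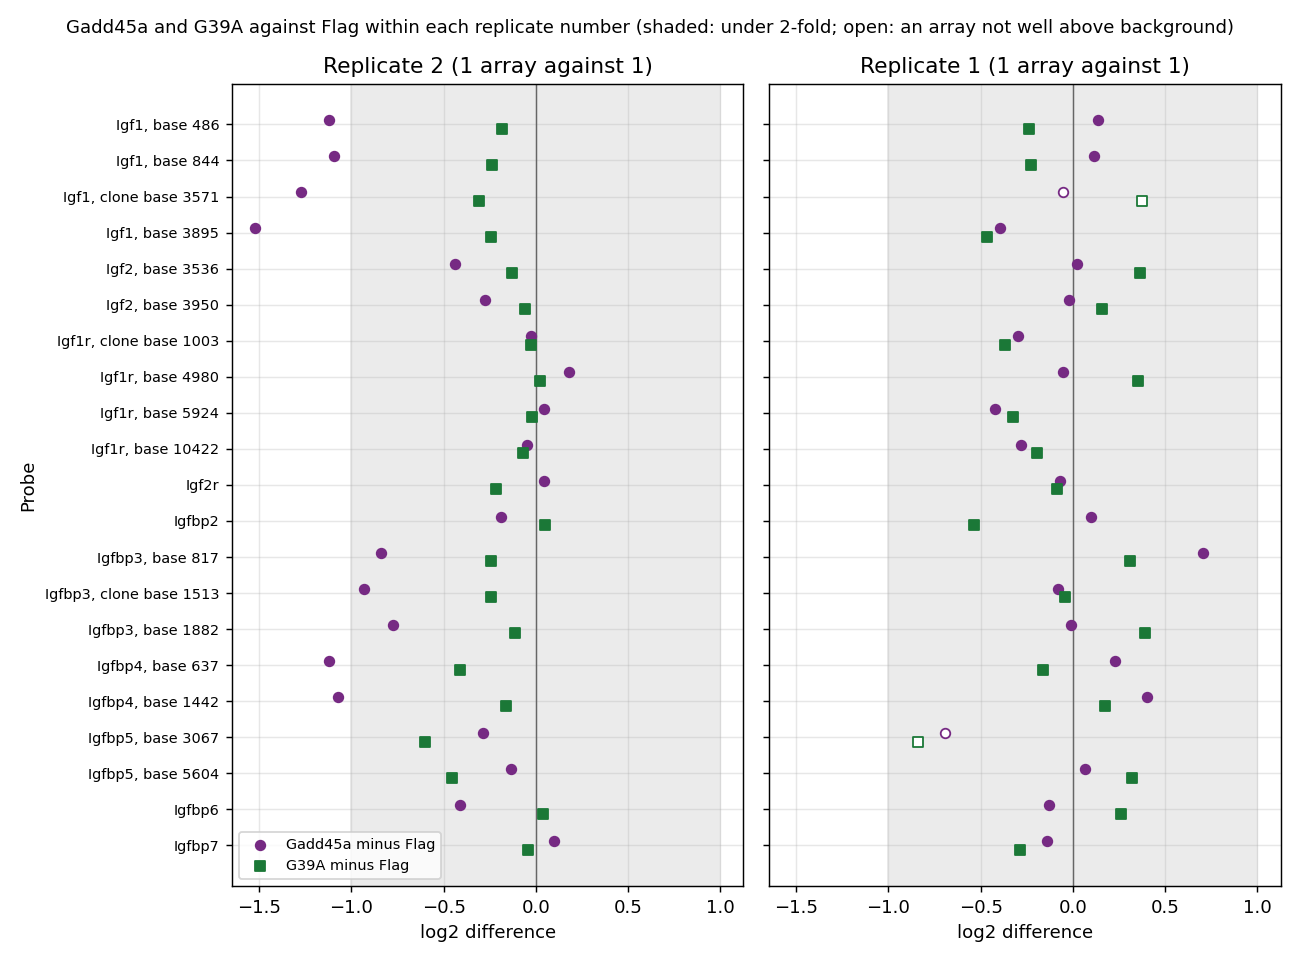
Log2 differences between 2 arrays of one replicate number for each member probe (Gadd45a minus Flag, G39A minus Flag), with open marks where an array was not well above background and shading below 2-fold. In replicate 2 the Gadd45a marks of Igf1 and Igfbp4 lie between -1.52 and -1.07, and in replicate 1 no mark passes 2-fold.

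Genes around the pathway were followed through 4 lists with 1 probe per gene, the one of highest mean signal. They were listed with earlier results of these data known. Genes are named by the smallest p over all their probes, while counts and values are those of the brightest probe. Over all 16044 genes tested, 33.8% were called higher and 25.3% lower in replicate 2 against replicate 1, and the list counts are read beside these shares.

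Of 11 relatives and carriers, 6 were tested, 4 were called higher, 1 lower and 1 not called. Besides H19, the RNA-binding proteins Igf2bp1 and Igf2bp3, which bind Igf2 mRNA, rose by 0.56 ± 0.09 and 0.51 ± 0.10 on the log2 scale. Their relative Igf2bp2 fell by 0.36 (SE 0.11, adjusted p = 0.0399). Insr, the insulin receptor, differed by -0.22 ± 0.10 and did not pass (adjusted p = 0.120). Ins2, an insulin gene next to Igf2, read 27.7 to 29.8 in replicate 2 and was not well above background on any replicate 1 array, at least 1.26-fold higher. Its higher call thus rests on a probe that entered only through the replicate 2 arrays. Igfbp1, whose probe lies 4093 bases from the nearest Igfbp3 probe, was not well above background on any of the 6 arrays.

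Of 10 tested proteases, inhibitors and processing enzymes, 6 were called higher, 2 lower and 2 not called. The higher calls include Adam12, which was not well above background on any replicate 1 array and entered only through replicate 2 (at least 3.84-fold higher). Pappa, the protease that frees IGFs from Igfbp4 and Igfbp5, read 28750 in Gadd45a, 18558 in G39A and 18093 in Flag in replicate 2, against 2583, 1998 and 2126 in replicate 1. The rise was 3.26 ± 0.11 on the log2 scale. Stc2, a secreted inhibitor of Pappa, read 431, 372 and 350 in replicate 2, against 3145, 2967 and 3466 in replicate 1, a difference of -3.06 ± 0.12. Pappa and Stc2 thus moved in opposite directions. Stc1, the other stanniocalcin that inhibits Pappa, was not called on any of its 3 probes, with 0.08 ± 0.09 on its brightest (adjusted p = 0.442). Mmp2, a matrix metalloproteinase that can cut binding proteins, rose by 2.78 ± 0.08. Pcsk6, a proprotein convertase, differed by -3.21 ± 0.16.

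Of 10 genes of the growth hormone route and its regulators, 3 were called higher, 3 lower and 4 not called. Ghr, the growth hormone receptor, whose signal induces Igf1 in liver, differed by -0.65 ± 0.10. Socs1, a feedback inhibitor of cytokine receptors, rose by 1.63 ± 0.09. Hmga2, a chromatin protein of fetal growth, rose by 0.58 ± 0.11. Stat5b, a transcription factor of this route, was called higher on a probe that was dim on the replicate 1 arrays, at least 1.38-fold, and not on its brightest probe (-0.12 ± 0.08).

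Of 38 tested genes that signal below the receptors, 12 were called higher, 7 lower and 19 not called. Pik3r1, the regulatory subunit of PI3-kinase, rose by 1.25 ± 0.16, and Pik3cb, a catalytic subunit, differed by -3.01 ± 0.12. Trib3, a pseudokinase that binds Akt, rose by 2.78 ± 0.08. Foxo4, a forkhead factor that Akt inhibits, differed by -3.33 ± 0.18, with 1 of 3 replicate 2 arrays well above background. In the 3 group comparisons none of the 125 probes of these lists passed limma's test, with or without the replicate block.

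**Figure D4:**
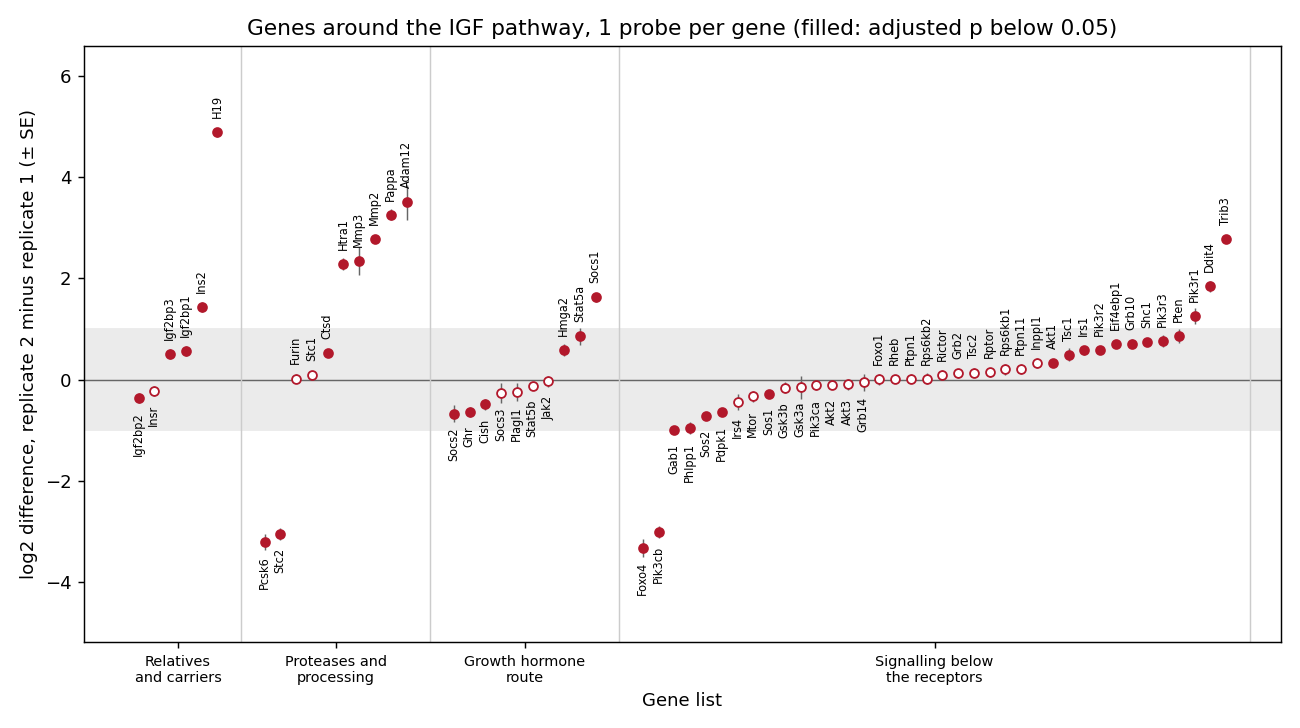
Log2 difference, replicate 2 minus replicate 1 (± SE, n = 3 arrays per number), for 1 probe per gene in 4 lists around the IGF pathway, with filled marks where limma's adjusted p was below 0.05 and shading below 2-fold. H19 lies at 4.89 and Pappa at 3.26, Stc2 lies at -3.06, and most signalling genes lie within 2-fold.

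The gene most like each member over the 6 arrays was taken from 17233 probes well above background on all of them, by Euclidean distance between log2 profiles centred on their own means. For Igfbp7 it was Bri3bp (distance 0.0880), for Igf1r Lrrc1 (0.0873) and for Igfbp6 Txndc16 (0.0966). For Igf2r it was Lpp (0.125), for Igf2 Phyhd1 (0.151) and for Igfbp3 Lrrc75a (0.201). Igf1 was nearest to Clec14a (0.293), Igfbp5 to Pgm5 (0.333), Igfbp4 to Cx3cl1 (0.378) and Igfbp2 to Slc1a6 (0.520). These distances describe 6 arrays that differ mainly by replicate number.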

How the data were processed

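Scanning software was Agilent Feature Extraction, version 10.7 per the submitters' processing notes. The deposited processed intensity is background-subtracted and not normalized between arrays, per the file headers. The deposited log2 value table follows the scanner values of its own arrays (lowest r 0.999; column medians 6.17) and served as an alternative. Its direction is that of the signal, it is not centred by gene, and no source used here gives its other steps.

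Spots were averaged per probe without control and outlier-marked spots, and log2 signals were taken relative to the 75th percentile of their array. Differences were tested with limma 3.58 in R 4.3 on all 6 arrays, with Benjamini-Hochberg adjustment over all probes. Group comparisons had no covariate and took probes well above background on both arrays of a group. The replicate comparison had group as a term and took probes well above background on all 3 arrays of a number. These scripts were tested on simulated data. Precision is limited by the number of arrays. Without a block, the difference between the replicate numbers also stays in the error of the group comparisons. The median SE was 0.313 there, 0.123 with the replicate block and 0.102 between replicate numbers.

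Same-numbered arrays deviated together from their group means (r 0.900 to 0.905 for each pair of groups), and the first principal component, 85.1% of the variance, parted the numbers, so the numbers were taken to pair the samples. The pairing comes from the data.

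Members and lists were chosen with earlier results of these data known. All members are named, with up to 4 genes per list whose probes, any of them counted, had the smallest p among those past the threshold, 6 genes always given (H19, Igfbp1, Insr and Igf2bp1 to Igf2bp3), the nearest profile to each member and the genes that check the labels. Stc1, Adam12 and the named cell type markers are given outside this rule. Coordinates are those of the probes in mm9.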

Additional observations from a re-analysis of the deposited data

How the results depend on the processing

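The replicate difference kept its direction on all 21 member probes under the other scalings, background correction, filters and models, and 20 stayed past the threshold except where a filter left fewer probes: 18 with probes bright on all 6 arrays, 19 with the filter of the group comparisons and 9 of 10 with 1 probe per gene. Leaving out 1 array gave 19 or 20. With normexp background correction the dim probes shrank, Igf1 at base 3571 to 0.67 (against 1.87) and Igfbp5 at base 3067 to 2.06 (against 3.60). In the group comparisons no member passed under any alternative. Over all probes, slide as a random block called 20 in Gadd45a against Flag and 3 in G39A against Flag, and the cause was not tested. The replicate block with quantile normalization, and with the deposited value table, each called 1 probe in Gadd45a against G39A (both settings were chosen after seeing the data). By itself the replicate block changed no call. Leaving out 1 array moved Igf1 at base 3895, Gadd45a minus Flag, between -2.39 and 0.48 (0.48 without Flag replicate 2), since 1 group then lacks a replicate number. Slide as a random block could not be fitted for the replicate comparison. With 2 arrays per group, small group differences cannot be resolved.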
